A study of Homo sapiens with 6 samples.

Results

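Secreted antimicrobial peptides, protease inhibitors and seminal proteins were located on the deposited lists of genes of high and of low expression in SiHa, an established line of human cervical squamous carcinoma cells. Members were the listed genes named as alpha or beta defensins (DEFA, DEFB), WAP four-disulfide core genes (WFDC, SLPI, PI3), semenogelins (SEMG), EPPIN, Kazal inhibitors (SPINK), Kunitz inhibitors (SPINT), PATE genes or numbered lipocalins (LCN). They numbered 69 of the 8946 symbols on either list. Of these, 66 were on the low list and 3, SLPI, SPINK6 and SPINT2, on the high list. Over all 8942 genes that stood on 1 list only, 49.4% were on the low list and 50.6% on the high list.

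The study compared the SiHa cells that passed through the membrane of a transwell insert (migrated) with those left behind (non-migrated), 3 libraries of each, collected 10 hours after seeding in plates of 6 wells, at passages 18 to 23. Cells of both fractions came from the same line, grown in DMEM with 10% serum, and were scraped and pooled. No other treatment or genetic change is named. The libraries held 18226280 to 33466924 assigned fragments. The expression table gives each locus a number from transcript assembly in place of a gene name, so no member has an expression value or a difference between fractions here. The lists hold names and hg19 positions with no value, and neither the rule that selected them nor the libraries or fraction they rest on was found in the labels or headers. High and low are read here as classes of level, from the names of the lists alone. All 106 listed genes of chromosome Y were on the low list of this cervical line. A low entry therefore need not mean that any expression was detected. No error or replicate is given for an entry, and all counts below are descriptions without a test. Epithelial and cervical carcinoma markers were looked up for the labelled line. KRT7, KRT8, KRT17, KRT18, CDKN2A and DSP were on the high list and KRT5 was on the low list. CDH1, EPCAM, ITGB4, KRT14, KRT19 and TP63 were on neither. Of 13 leukocyte markers 0 were high and 7 low, PTPRC and CD3D among them. Over all 20052 protein coding genes of RefSeq, 22.3% were high and 18.8% low.

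Most of these families share a design. They encode a small secreted or surface protein, in most cases held together by disulfide bonds. The semenogelins are longer, with 462 and 582 residues. Many of the genes arose by local duplication, so that relatives stand side by side on the chromosome. Defensins disrupt microbial membranes, and many beta defensins are made in the epididymis, where they coat sperm. WAP, Kazal and Kunitz domains block serine proteases such as neutrophil elastase, trypsin and the kallikreins. In the female tract, SLPI is a well-known component of cervical mucus.

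Membership was uniform in the listed defensins, and all 3 high members were protease inhibitors, of the SLPI, SPINK and SPINT families. All 6 listed alpha defensins and all 37 listed beta defensins were low, as were 9 of 9 WFDC genes, 2 of 2 semenogelins, 6 of 6 lipocalins and PATE1. The SPINK family had 3 low and 1 high, and the SPINT family 2 low and 1 high. To account for relatives on neither list, the families were also counted among the protein coding genes that RefSeq (GRCh38.p14) gives under these names. Of 89 such genes, 66 were low, 3 high and 20 on neither list, with EPPIN and its readthrough found under an older name. Thus 74.2% were low, against 18.8% of all 20052 RefSeq protein coding genes, of which 22.3% were high. On neither list stood 22.5% of the families' genes and 58.9% of all coding genes. A gene on neither list may have had an intermediate level or may be missing from the authors' annotation, and the lists do not tell these apart.

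**Figure D1:**
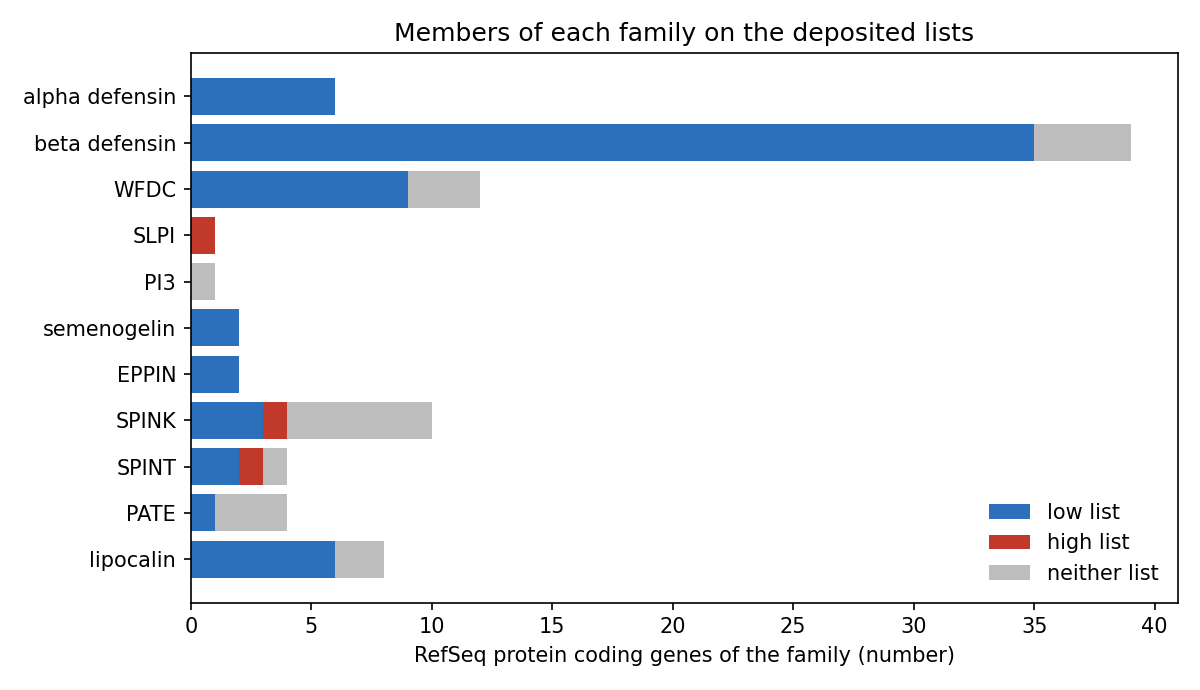
Number of RefSeq protein coding genes of each family (horizontal axis) on the low list (blue), the high list (red) and neither list (grey). The beta defensins give 35 low genes and 0 high, while the 10 SPINK genes divide into 3 low, 1 high and 6 on neither list.

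The alpha defensins were low as a complete family. DEFA1, DEFA1B, DEFA3 and DEFA4 encode peptides of neutrophil granules, and DEFA5 and DEFA6 peptides of intestinal Paneth cells. RefSeq names 6 coding genes of this family, and all 6 were on the low list. Of 39 RefSeq coding beta defensins, 35 were low, and DEFB1, DEFB109B, DEFB130B and DEFB131B were on neither list. The listed names DEFB130 and DEFB131 are older symbols, matched here to DEFB130A and DEFB131A. DEFB130B and DEFB131B may thus be absent by name alone. DEFB1 is the beta defensin that epithelia make constitutively, whereas DEFB4A and DEFB103A, both low, encode the peptides hBD-2 and hBD-3 that epithelia make on inflammatory stimulation. DEFB126, whose product coats sperm in the epididymis, was low. The other 2 listed beta defensins, DEFB117 and DEFB133, are pseudogenes in RefSeq.

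The low entries of chromosome 8 are not independent of each other. The genes DEFB4, DEFB103, DEFB104, DEFB105, DEFB106 and DEFB107 each stand there as an A and a B copy, and all 12 copies were low. The coding sequences in GENCODE 29 were the same between both copies for 6 of 8 pairs compared, including DEFA1 with DEFA1B. DEFB4A and DEFB4B matched at 191 of 192 bases, and DEFA1 and DEFA3 at 281 of 282. Fragments within identical stretches cannot be assigned to 1 copy. Only coding bases were compared, and the authors' treatment of such fragments was not found in the labels or headers, so the entries of these copies are uncertain. The hg19 spans of DEFA1B and DEFA3 also overlapped by 2388 bases on the same strand. Without chromosome 8, 44 of 47 members were low.

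Members stood in runs. With at most 500 kb allowed between neighbours, 61 of the 69 members fell into 8 clusters of 3 or more, and 6 of these clusters, with 45 members, were low throughout. The largest lay on chromosome 8 from DEFA6 to DEFB4A (hg19 chromosome 8, 6782215 to 7754233), with 6 alpha and 12 beta defensins over 972 kb. The other genes listed within it, SPAG11A, SPAG11B and ZNF705G, were low as well. SPAG11A and SPAG11B encode epididymal proteins related to defensins. The nearest high gene was AGPAT5, an acyltransferase of phospholipid synthesis, 165 kb before DEFA6. A second chromosome 8 cluster (11831446 to 12175825) held DEFB136, DEFB135, DEFB134 and DEFB130, all low, beyond CTSB, the high gene of the lysosomal protease cathepsin B, 104 kb away.

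Beta defensins formed 3 further clusters, again all low. On chromosome 6 (49913814 to 50016364), DEFB133, DEFB114, DEFB113, DEFB110 and DEFB112 stood within 103 kb on the minus strand. Their region was low more widely. Of the 20 nearest listed genes outside the cluster, 90% were low, and the nearest high gene, the replication helicase gene MCM3, lay 2112 kb beyond DEFB112. On chromosome 20, DEFB125, DEFB126, DEFB127, DEFB128, DEFB129 and DEFB132 (68351 to 241737) stood close to the chromosome end, 85.9 kb before the high gene NRSN2. A second run of 8 (29845467 to 30060816) held DEFB115, DEFB116, DEFB117, DEFB118, DEFB119, DEFB121, DEFB123 and DEFB124. The next listed gene, REM1, was low 2.28 kb after DEFB124. HM13, the high gene of signal peptide peptidase, stood 41.4 kb from DEFB124.

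Lipocalins bind small hydrophobic molecules in a barrel-shaped pocket. LCN10, LCN6, LCN8 and LCN15 were low within 25.05 kb of chromosome 9 (139633913 to 139658965), all on the minus strand. LCN6 and LCN8 are known from the epididymis. Of the 20 nearest listed genes outside this cluster only 10% were low, and the 10 nearest listed genes before it were all high. The island of low genes thus stood among high genes, unlike the chromosome 6 defensins. LCN1, the lipocalin of tears, and LCN9 were low at another site of chromosome 9 (138413284 to 138557949), with OBP2A, PAEP and GLT6D1 low between them. PAEP encodes glycodelin, a lipocalin of the endometrium. LCN2, the iron-siderophore binding lipocalin of neutrophils and inflamed epithelia, and LCN12 were on neither list.

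**Figure D2:**
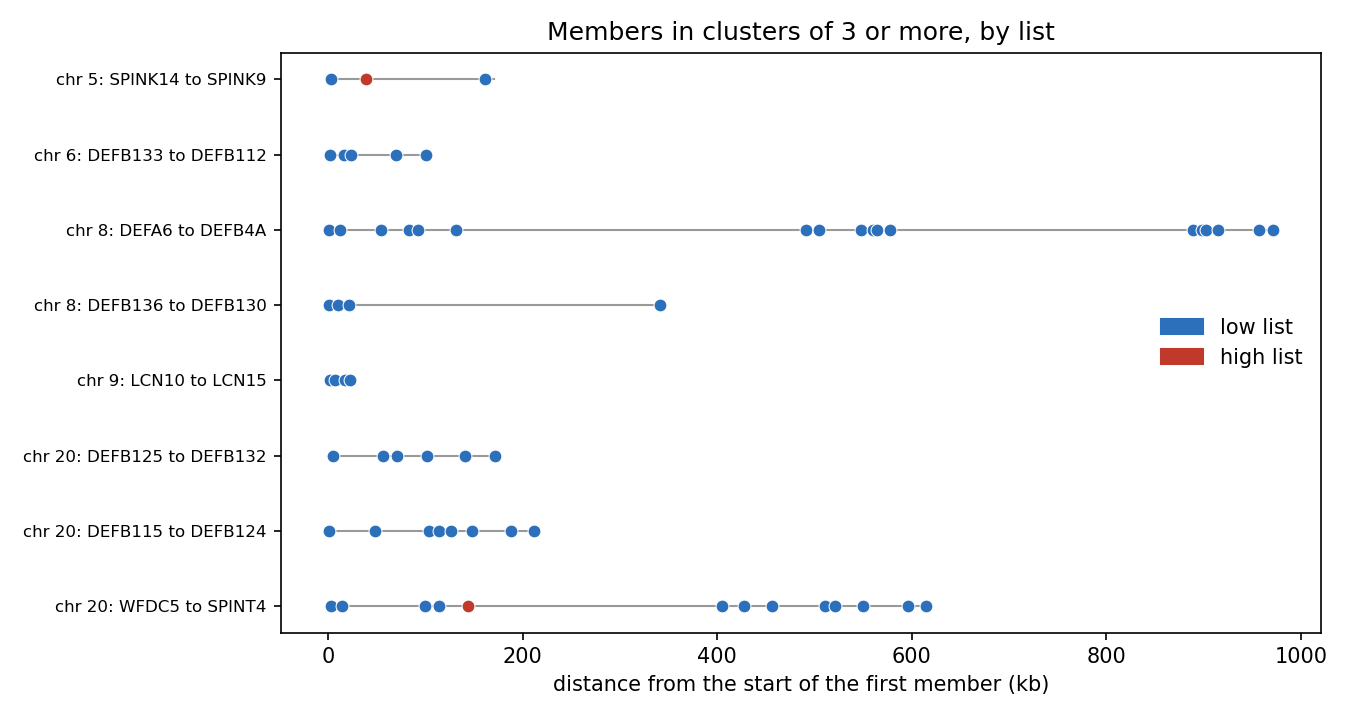
Position of each member along its cluster, in kb from the start of the first member (horizontal axis), for the 8 clusters of 3 or more members, with low genes in blue and high genes in red. Each line spans a cluster from its first to its last base. Red points are seen in 2 clusters, 1 each on chromosomes 5 and 20, and the other 6 are blue throughout.

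The cluster on chromosome 20 from WFDC5 to SPINT4 (43738093 to 44354469, 616 kb) joined 4 families and held 13 members, of which SLPI was the only high one. SLPI (43880880 to 43883205, minus strand) encodes an inhibitor of neutrophil elastase and cathepsin G with a pair of WAP domains. On its low-coordinate side stood 4 low members. SEMG2 was 27.8 kb and SEMG1 42.5 kb away, and both encode semenogelins, the gel proteins of the seminal coagulum, which the kallikrein KLK3 cleaves. WFDC12 at 128 kb and WFDC5 at 137 kb were low as well. Past them, STK4, a kinase of the Hippo pathway, was high at 172 kb, followed by TOMM34, YWHAB, SERINC3 and TTPAL, also high.

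On the other side of SLPI stood 2 high genes that are no members. SDC4, the gene of the cell surface proteoglycan syndecan-4, was 70.7 kb away, and PIGT, a subunit of the enzyme that attaches GPI anchors, 161.5 kb. The low members resumed with SPINT3 at 258 kb and ran through WFDC6, WFDC8, WFDC9, WFDC10A, WFDC11 and WFDC13 to SPINT4. After SPINT4, DNTTIP1 and UBE2C, the latter a ubiquitin enzyme of mitosis, were high. WFDC9 and WFDC10A overlapped by 1671 bases on opposite strands. No label or header gives the strand setting of the counting, and their fragments may not have been told apart.

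Within 250 kb of SLPI, 4 of 7 listed genes were low (57.1%), and all 4 were members, while the 3 high genes, STK4, SDC4 and PIGT, were not. The same division held over 1 Mb on each side. There, 12 of 12 other members were low, and 12 of 15 other listed genes were high. The 3 exceptions were R3HDML and 2 rows of SPINLW1. Of the 20 nearest listed genes outside the whole cluster 20% were low, against 36.9% of the 260 listed non-members of chromosome 20. Among listed genes of this stretch, SLPI was thus on the list of most of its unrelated neighbours and not on that of its listed relatives.

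EPPIN itself stood on the low list, under its older symbol SPINLW1 (44165625 to 44176391, minus strand), together with the readthrough SPINLW1-WFDC6. EPPIN encodes a sperm surface protein with a WAP and a Kunitz domain that binds semenogelin. Its older name falls outside the naming rule, and with both rows added 68 of 71 genes, 95.8%, were low, against 95.7% of the members. The hg19 spans of both rows overlap each other and that of WFDC6 (44162835 to 44168134) on the same strand. Their fragments may not have been told apart, so these low entries are not independent. In RefSeq's order, 26 coding genes run from WFDC5 to WFDC3, of which 14 were low, 3 high and 9 on neither list. The 9 included 4 of the families. PI3 encodes the elastase inhibitor elafin and lies between WFDC12 and SEMG1. WFDC2 encodes HE4, a secreted protein used as an ovarian cancer marker, and lies between PIGT and SPINT3. WFDC10B and WFDC3 were the remaining ones.

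**Figure D3:**
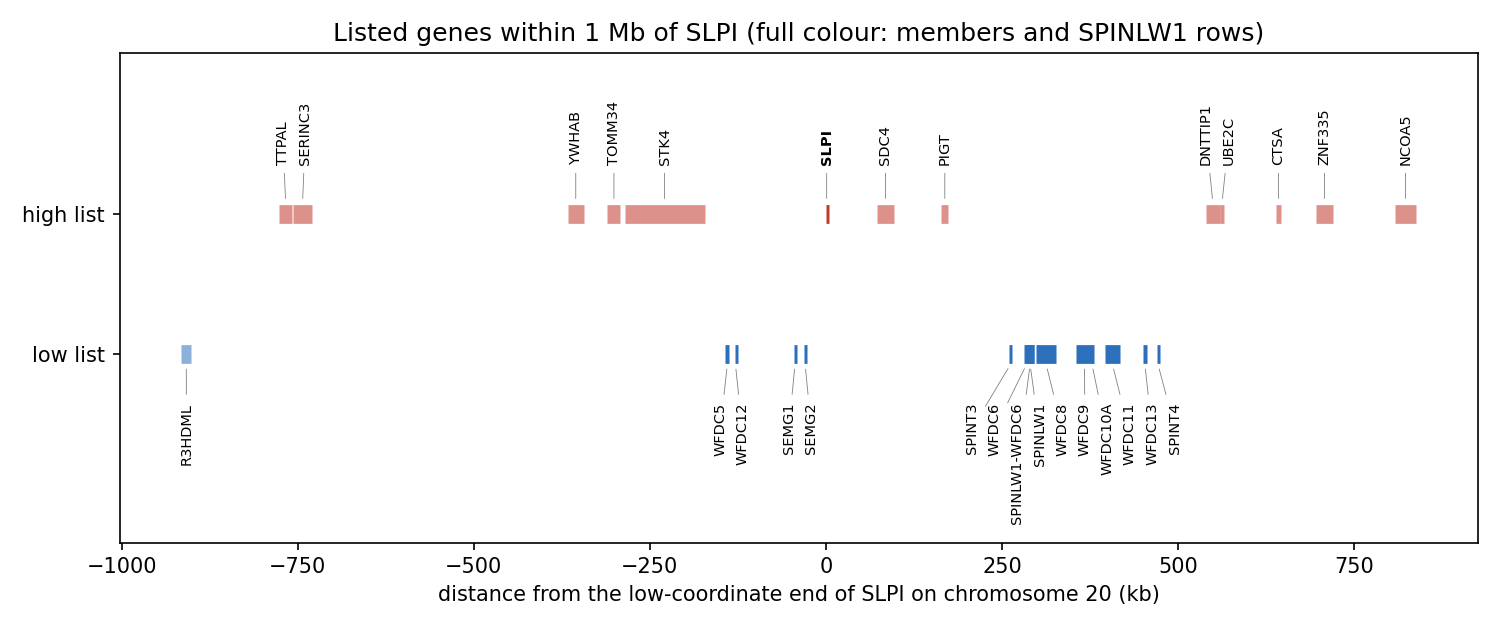
Listed genes within 1 Mb of SLPI on chromosome 20, drawn to scale by distance in kb from the low-coordinate end of SLPI (horizontal axis), with high genes in the upper row and low genes in the lower row. Full colour marks members and the SPINLW1 rows, and pale colour all other genes. All 12 other members lie in the lower row, and 12 of the 15 genes that are no members in the upper row.

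The promoters of SEMG1 and SEMG2, the low genes closest to SLPI, are shown because these copies sit beside a high gene. SLPI has no entry in the promoter table used here. Each line gives the 250 bases before the RefSeq start (GRCh38.p14, plus strand), at chr20:45206783-45207032 for SEMG1 and chr20:45221123-45221372 for SEMG2. Capitals mark the TATA box letters TATAAA and the AP-1 letters TGANTCA, searched on both strands, which do not overlap each other.
SEMG1: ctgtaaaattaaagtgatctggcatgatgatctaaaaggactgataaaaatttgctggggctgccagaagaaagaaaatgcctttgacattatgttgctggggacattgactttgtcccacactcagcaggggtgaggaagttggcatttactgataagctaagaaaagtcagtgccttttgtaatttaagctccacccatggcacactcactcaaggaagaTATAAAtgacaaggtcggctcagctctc
SEMG2: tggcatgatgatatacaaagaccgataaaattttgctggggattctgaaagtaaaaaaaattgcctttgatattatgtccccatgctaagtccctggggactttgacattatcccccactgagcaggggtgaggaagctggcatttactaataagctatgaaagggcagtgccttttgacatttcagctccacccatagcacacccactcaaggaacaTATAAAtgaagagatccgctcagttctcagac
TATAAA was found once in each, beginning at base -28 from the start in SEMG1 and -32 in SEMG2, and TGANTCA in neither. Of 27305 promoters of this length, 11.2% held TATAAA and 6.57% held TGANTCA. Both sequences aligned with 198 identical bases over 270 columns, and the coding sequences of SEMG1 and SEMG2 were identical at 71.3% of aligned columns. SEMG1 held 1 CpG and SEMG2 held 2.

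Kazal inhibitors on chromosome 5 gave the only other cluster with both classes. SPINK6 (147582357 to 147594700, plus strand), which encodes an epidermal inhibitor of kallikreins, was high. SPINK14 (147549296 to 147554961) was low 27.4 kb before it, a distance close to that between SLPI and SEMG2. SPINK9 (147700766 to 147719412), the gene of a kallikrein inhibitor of palm and sole skin, was low 106 kb after it. In RefSeq's order SPINK1, SPINK5, SPINK13 and SPINK7 of the same stretch were on neither list. SPINK5 encodes LEKTI, the multi-domain kallikrein inhibitor of the epidermis. The first high gene outside the family was FBXO38, 169 kb from SPINK6, and of the 10 nearest listed genes on each side 55% were low. SPINK8 on chromosome 3 (48348336 to 48369831) was low and stood apart from its family, and SPINK2 and SPINK4 were on neither list.

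The 250 bases before the outermost RefSeq start of these 3 neighbours (GRCh38.p14, plus strand) are printed to set the high gene beside its low relatives, with the same letters to be marked. They lie at chr5:148168296-148168545 for SPINK14, chr5:148202528-148202777 for SPINK6 and chr5:148335309-148335558 for SPINK9. The spacing of these RefSeq starts differs from that of the listed hg19 starts, most for SPINK9. The windows therefore need not lie before the starts of the listed genes.
SPINK14: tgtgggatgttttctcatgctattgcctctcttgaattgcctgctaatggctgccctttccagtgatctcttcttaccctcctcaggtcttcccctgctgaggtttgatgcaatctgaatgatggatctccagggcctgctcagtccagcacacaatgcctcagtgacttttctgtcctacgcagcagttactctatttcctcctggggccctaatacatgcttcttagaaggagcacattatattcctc
SPINK6: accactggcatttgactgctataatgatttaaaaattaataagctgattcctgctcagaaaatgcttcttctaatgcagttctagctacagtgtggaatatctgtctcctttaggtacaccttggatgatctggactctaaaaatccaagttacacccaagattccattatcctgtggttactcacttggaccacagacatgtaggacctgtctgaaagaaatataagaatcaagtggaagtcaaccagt
SPINK9: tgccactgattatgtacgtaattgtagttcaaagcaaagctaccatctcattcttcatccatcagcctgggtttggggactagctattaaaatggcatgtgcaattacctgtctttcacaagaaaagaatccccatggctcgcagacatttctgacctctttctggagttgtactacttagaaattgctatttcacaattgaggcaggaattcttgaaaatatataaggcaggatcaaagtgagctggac
Neither TATAAA nor TGANTCA was found in any of the 3, so no base is in capitals. SPINK6 aligned with SPINK9 at 53.3% and with SPINK14 at 48% of columns. The high gene SPINK6 held 0 CpG in this window, against 1 in SPINK14 and 2 in SPINK9. Among 3822 genes of the high list with a promoter in the table, 0.576% had no CpG, against 9.46% of 3192 genes of the low list and 6.38% of all promoters. The median ratio of observed to expected CpG was 0.862 over the high list and 0.283 over the low list. RefSeq gives SPINK6 a second start, whose window was not printed. A promoter entry existed for 36 of the 69 members, or 52.2%, so a comparison of promoters over all members was void, being under the 80% set for it.

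SPINT2 on chromosome 19 (38755098 to 38783253, plus strand) was the high member that stood alone. It encodes HAI-2, a membrane-bound Kunitz inhibitor of matriptase, prostasin and the activator of hepatocyte growth factor. PPP1R14A was low 7.87 kb before it, the last of 7 consecutive low genes, while YIF1B, 10.9 kb after it, opened a run of 7 high genes. Its relative SPINT1 (HAI-1) was on neither list, and SPINT3 and SPINT4, Kunitz genes of the chromosome 20 cluster, were low. The nearest listed gene was a low one for each of the 3 high members, namely SEMG2, SPINK14 and PPP1R14A. Over all high genes this was so for 23.7%. Of the 66 low members, 61 had a low gene as the nearest, or 92.4%, against 72.7% of all low genes, and many of these nearest genes were members themselves.

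**Figure D4:**
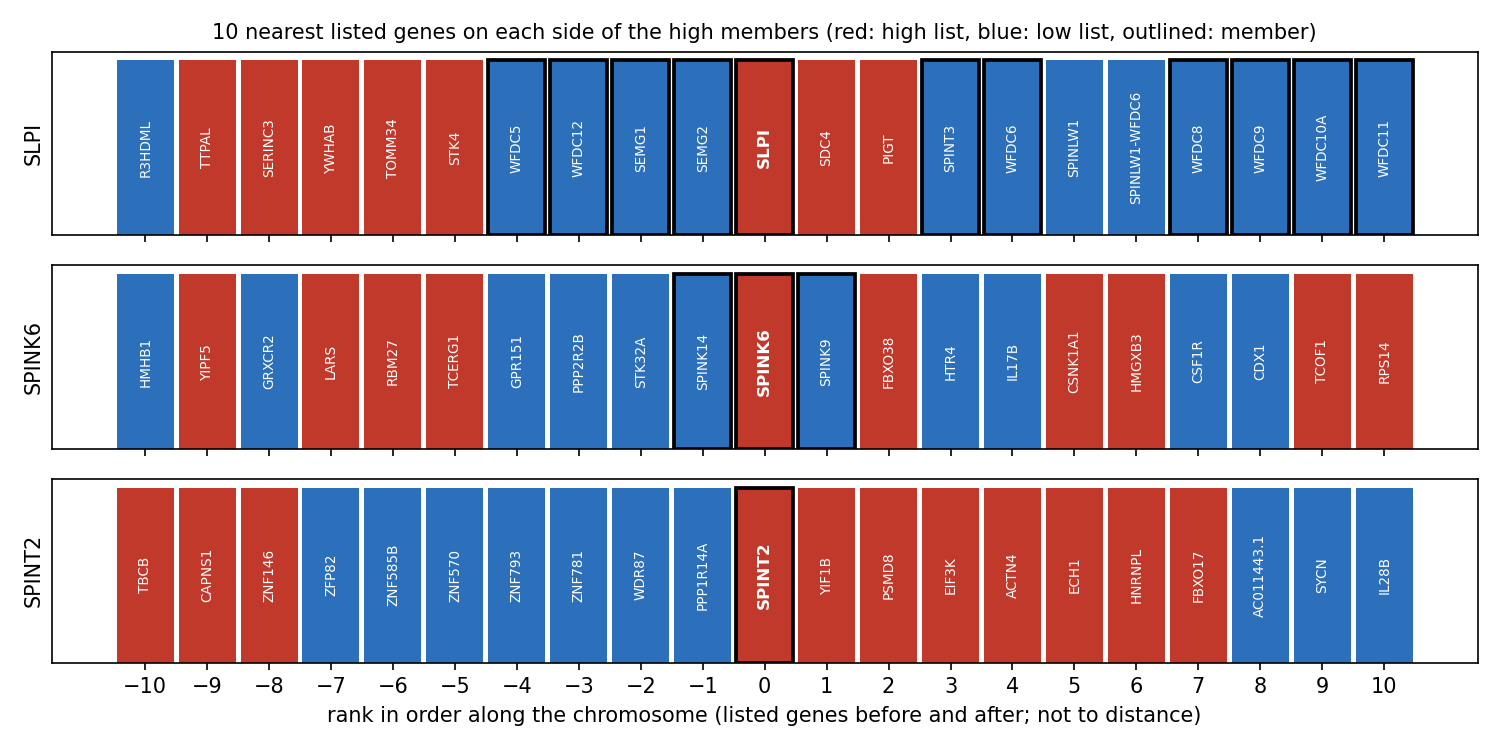
The 10 nearest listed genes on each side of SLPI, SPINK6 and SPINT2 in chromosome order (horizontal axis: rank, not distance), red for the high list, blue for the low list, outlined for members. SLPI lies between low members and the high gene SDC4, SPINK6 between low relatives, and SPINT2 between a run of 7 low and a run of 7 high genes.

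The remaining low members stood alone. WFDC1 on chromosome 16 (84328252 to 84363457) encodes a secreted WAP protein known as ps20. It was 54.9 kb from the low gene KCNG4 and 108 kb from the high gene TAF1C. PATE1 on chromosome 11 (125616188 to 125619743) encodes a sperm protein of prostate and testis, while PATE2, PATE3 and PATE4 were on neither list. DEFB108B on chromosome 11 (71544246 to 71548608) and DEFB131 on chromosome 4 (9446260 to 9452240) were the beta defensins outside the clusters.

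Most products were small on both lists. By the longest coding transcript in GENCODE 29, available for 68 members, the median length was 93 residues, against 509 over high genes and 345 over low genes. At most 150 residues were encoded by 54 of the 68, or 79.4%, against 8.55% of all listed genes with a coding transcript. SPINK6 with 80 residues was the shortest of the 4 SPINK members, SPINT2 with 252 the longest of the 3 SPINT members, and SLPI had 132. Low members ranged from 61 residues in DEFB133, coding in GENCODE 29 but a pseudogene in RefSeq, to 582 in SEMG2. The hg19 span of a member had a median of 3.84 kb, against 22.3 kb over all listed genes, 33.2 kb over high and 10.9 kb over low genes.

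**Figure D5:**
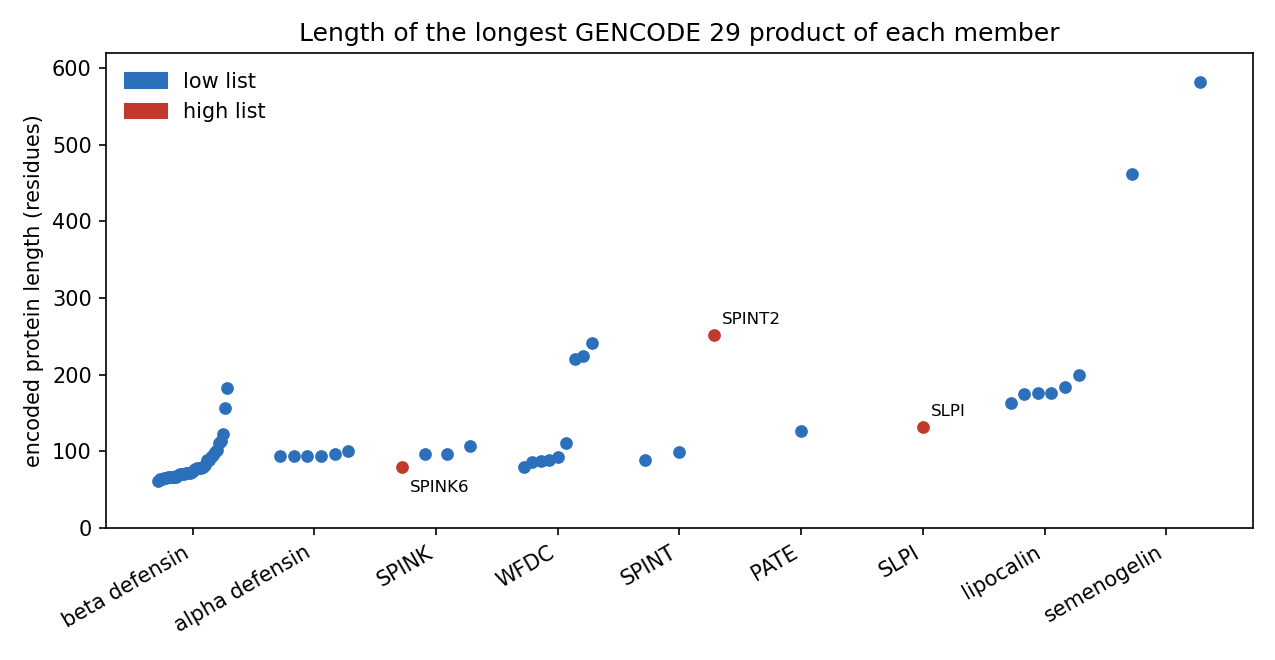
Length in residues of the longest GENCODE 29 product of each of 68 members (vertical axis), grouped by family, with low genes in blue and high genes in red. The high genes SPINK6, SLPI and SPINT2 lie at 80, 132 and 252 residues, within the 61 to 582 of the low genes.

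Genes with the same protein domains but other names were counted over all genes looked up, those on neither list included, for which the shares over all RefSeq coding genes were 18.8% low and 22.3% high. Of 11 further Kunitz genes 4 were high, namely APP, APLP2, COL7A1 and the coagulation inhibitor TFPI, and 3 low, COL6A3, TFPI2 and WFIKKN2. Of 18 further Kazal-like genes AGRN, FSTL1, FSTL3, HTRA1 and SPOCK1 were high and FSTL4, SMOC2, SPOCK3 and TMEFF2 low. Among 28 genes of the Ly6 fold that PATE proteins share, CD59, LY6E, LY6K and the urokinase receptor PLAUR were high and 7 were low, such as GML, LY6H and SLURP1. Of 11 other lipocalins 0 were high, 4 on neither list and 7 low, APOD, OBP2A, OBP2B, ORM1, ORM2 and PAEP among them. Of 4 further WAP genes WFIKKN2 was low and 0 high. These counts overlap. PAPLN, WFIKKN1 and WFIKKN2 were counted with the WAP and the Kunitz genes, and AMBP with the Kunitz genes and the lipocalins.

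The serine proteases that these inhibitors act on looked up here were absent from the high list. Of 43 such genes 0 were high, 17 on neither list and 26 low, against 22.3% high and 18.8% low over all RefSeq coding genes. The low ones included the neutrophil proteases CTSG and PRTN3 and the kallikreins KLK2, KLK3, KLK6 and KLK7. The low count also holds AZU1, an inactive relative of these proteases and so not a target. ELANE, the elastase that SLPI inhibits, was on neither list, as were KLK5 and KLK14, and so were ST14 (matriptase), PRSS8 (prostasin) and HGFAC, targets of SPINT2. In the hepatocyte growth factor pathway that SPINT2 restrains, the receptor MET and its adaptor GRB2 were high and the protease HPN was low. The other 7 of 10 genes, HGF among them, were on neither list. HGFAC, HPN, PRSS8 and ST14 were counted here and among the proteases.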

How the data were processed

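RNA of 3 migrated and 3 non-migrated SiHa libraries was measured by sequencing, and hg19 with TopHat2, Cufflinks 2.2.1, Cuffdiff and CASAVA 1.8.2 are named, without order or settings, in the submitters' processing notes. The deposited estimated counts (fragments per locus) and the scaled fragment signal cover 26006 loci and come from Cuffdiff, per the file headers. The authors' estimated counts were only summed per library. The table's replicate index matches no label, so its libraries were assigned to no sample and only their range is given. The 2 deposited lists give other information than a measurement, gene names with positions, and their value column is empty.

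Symbols on both lists (4) were left out of shares. Listed names were matched to RefSeq (GRCh38.p14) by symbol, or by a synonym held by 1 gene, for 8735 of 8942 genes and all 69 members. RefSeq served for names, gene order and promoters, and GENCODE 29 for coding lengths. Distances run between the nearest ends of hg19 spans. A cluster allowed gaps of 500 kb. Text names every high member, every member of clusters of up to 10, and the first and last of larger ones; other genes were named where they are known relatives, and of the partner lists the high genes and some low genes chosen after the lists were seen. Members and gene lists were chosen with earlier results of these data known. Position and motif counting was tested on simulated data. Python 3.11.15, pandas 2.3.3 and matplotlib 3.10.9 were used.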

Additional observations from a re-analysis of the deposited data

How the results depend on the processing

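No paired analysis was possible because the lists hold no per-sample values and the table names no member. For the same reason no library could be left out. The share of members on the low list, 95.7%, stayed between 90.6% and 95.8% with rows in place of symbols, coding genes alone, and without beta defensins, without chromosome 8 or with older names, the last 2 chosen after seeing the data. Counting each of the 9 families once gave 82.4%, since SLPI then weighs as much as all beta defensins. The share of all listed genes on the low list, 49.4%, was 45.9% for coding genes and 45.8% without olfactory receptor, keratin associated and LINC genes. Clusters of 3 or more numbered 8, 10 with gaps of 100 kb and 8 with 1 Mb. Around SLPI the low share was 57.1% within 250 kb, 55.6% to 73.7% in other windows, and 0% over the 3 neighbours that are no members. Scaled fragments gave a median of 24065082 per library, against 23259216 before scaling. No member has a value, and the libraries behind the lists are not known, so the bearing of depth on a member's list was not tested.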

Other observations

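Of 34 genes of other antimicrobial proteins, 0 were high, 22 low and 12 on neither list, against 22.3% high and 18.8% low over all RefSeq coding genes. The low ones included CAMP, the cathelicidin precursor, the secretory iron binder LTF, RNASE7 and S100A7 of skin, and DCD, the sweat peptide dermcidin. The chemokine CCL20, the mucosal receptor PIGR and the calprotectin genes S100A8 and S100A9 were among those on neither list. Genes known for epididymis, prostate or seminal fluid gave 0 of 30 high, 24 low and 6 on neither list, with MSMB and PIP of seminal plasma, CRISP1, the ribonuclease-like genes RNASE9 and RNASE10, and SPAM1, the sperm hyaluronidase. KLK2 and KLK3 are on this list and on that of the proteases, and DEFB1, on neither list, is also a gene of the families. The lists were written with earlier results of these data known, so these counts are descriptions.

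CRISP1 was the listed gene nearest to the chromosome 6 defensins, 69 kb before DEFB133, and the last of 15 consecutive low genes there. CAMP was low 81.4 kb from SPINK8, its next listed gene on the low-coordinate side.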
